A study of Mus musculus with 2 samples.

Results

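Extracellular antagonists of bone morphogenetic proteins (BMPs) were examined in mouse urogenital ridges that had lost one or both copies of Misr2. The 10 genes were Chrd, Nog, Bmper, Fst, Fstl1, Fstl3, Grem1, Twsg1, Nbl1 and Kcp, of 18193 genes that the array annotation gives a probe set of their own. They were represented by 15 probe sets, each assigned to one of these genes alone. The genes were chosen with the difference between the same 2 arrays in view, so that their values are given as a description and support no test.

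RNA came from ridges without gonads at E14.5, in a mixed background of C57Bl/6 and 129SVEV, and was hybridised to 1 array per genotype. The control pool was Misr2+/- and the other pool was Misr2-/-, so that both pools carried at least 1 deleted allele and no wild-type ridge was measured. Each pool held about 100 ridges whose genotype was read from a YFP reporter, and individual embryos cannot be separated. Misr2 (Amhr2 in current nomenclature) is the gene for a type II receptor whose ligand, Müllerian inhibiting substance, is the testis hormone that removes the Müllerian duct in males. The question was which ridge transcripts differ when this receptor is missing.

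BMPs are secreted ligands of the TGF-beta family that signal through paired serine/threonine kinase receptors and Smad1, Smad5 and Smad9, the same Smads that the receptor for Müllerian inhibiting substance uses. Chordin, noggin, gremlin and related secreted proteins bind BMPs outside the cell and keep them from their receptors, whereas follistatin and its relatives bind mainly activins. In the embryonic urogenital tract such antagonists are known for setting where BMP signalling can act, for example Grem1 at the outgrowing ureteric bud.

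The upstream sequences of 3 genes are shown because Chrd and Nbl1 had the highest signal difference among the antagonists and Twsg1 the lowest one with both signals above the floor, the median of each array. Each run is the 250 bases before the gene's start in the RefSeq promoter table of build GRCm38.p6, which held 8 of the 10 genes, written 5′ to 3′ on the gene's strand. Capitals mark matches, on either strand, to GGCGCC, a GC-rich site to which Smad1 and Smad5 are known to bind, or to CAGAC, the core of the general Smad binding element. The 2 motifs do not overlap in these windows.
Chrd: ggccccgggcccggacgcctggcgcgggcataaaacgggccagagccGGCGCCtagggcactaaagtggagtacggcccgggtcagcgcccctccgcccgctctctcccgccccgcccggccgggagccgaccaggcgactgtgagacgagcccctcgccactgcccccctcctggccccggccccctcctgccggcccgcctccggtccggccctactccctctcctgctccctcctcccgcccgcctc
Nbl1: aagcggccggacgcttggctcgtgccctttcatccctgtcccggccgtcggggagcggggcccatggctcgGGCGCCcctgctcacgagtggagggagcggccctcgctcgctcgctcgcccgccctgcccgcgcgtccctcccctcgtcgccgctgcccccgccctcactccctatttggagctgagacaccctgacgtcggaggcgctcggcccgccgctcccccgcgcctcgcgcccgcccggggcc
Twsg1: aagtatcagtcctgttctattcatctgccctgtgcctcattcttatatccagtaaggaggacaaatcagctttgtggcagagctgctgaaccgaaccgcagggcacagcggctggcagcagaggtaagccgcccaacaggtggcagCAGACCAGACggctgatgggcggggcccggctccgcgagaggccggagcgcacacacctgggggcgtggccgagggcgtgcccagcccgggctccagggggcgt

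The Chrd window lies at chr16:20732877-20733126 on the plus strand and held 1 GGCGCC, from 203 to 198 bases before the start. The Nbl1 window lies at chr4:139092971-139093220 on the minus strand and held 1 GGCGCC, from 179 to 174 bases before the start. The Twsg1 window lies at chr17:65951188-65951437 on the minus strand and held 2 adjacent CAGAC, together from 104 to 95 bases before the start. GGCGCC occurred in 3 of the 8 windows, those of Chrd, Nbl1 and Grem1, and in 9.59% of all 32851 windows of this length in the table. CAGAC occurred in 3 of the 8, those of Twsg1, Fstl3 and Grem1, and in 42.2% of all windows. A match is a run of letters and was not measured as a bound site. The windows of Chrd and Nbl1 were 78.0% and 77.6% G or C, and that of Twsg1 64.4%.

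The 2 arrays differed in brightness, with a median signal of 116.5 in the Misr2+/- pool and 139.4 in the Misr2-/- pool. These medians served as the floor of each array, and a probe set was taken as measured if it reached the floor of its array in either pool. Unless said otherwise, a difference is log2 of the homozygous over the heterozygous signal after each array was divided by its median, which takes off a shift of 0.26. Signals below the floor were replaced by it. Amhr2 served as a check of the labels, and its brightest probe set went from 1549.6 in the Misr2+/- pool to 10.2 in the Misr2-/- pool, in the direction of the genotypes; whether these probes overlap the deletion is not stated in the labels. With 1 array per genotype there is no replicate error. The disagreement between different probe sets for a gene (probe set spread) was a log2 SD of 0.23 among 5264 genes. It was taken within the same 2 arrays and leaves out variation between pools. It was computed after signals below the floor were replaced, which can narrow it at low signal. In such pools of whole tissue, fewer cells of a type and less RNA per cell cannot be told apart.

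**Figure D1:**
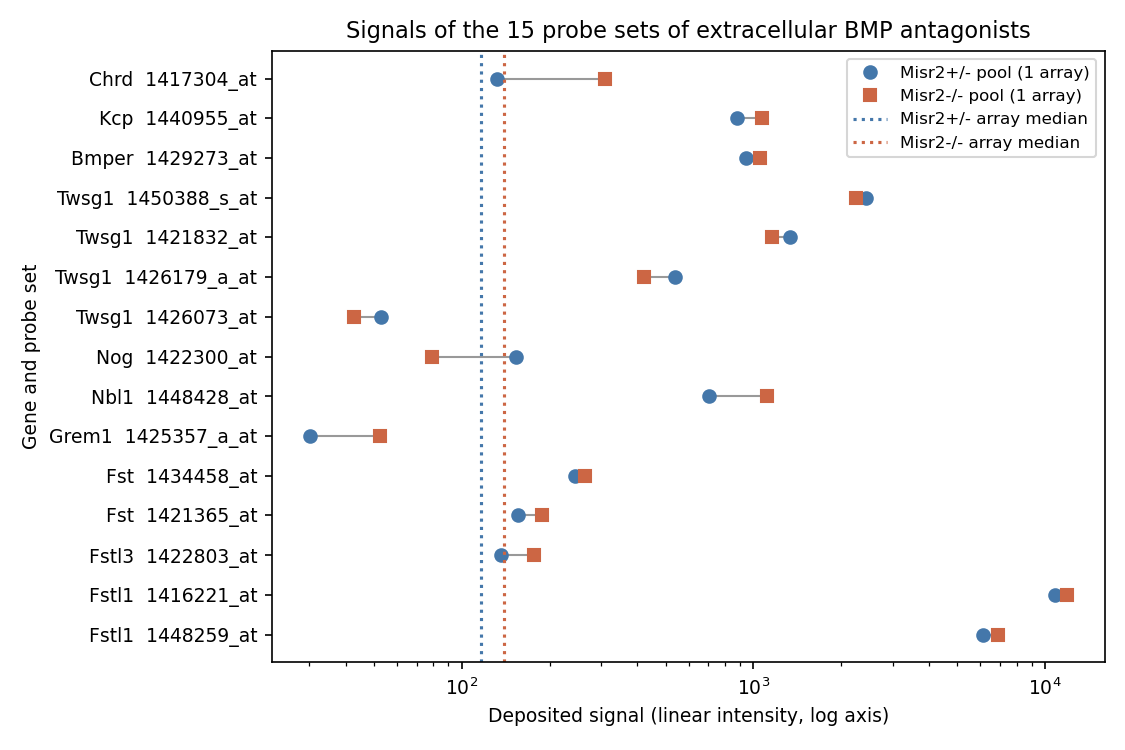
Deposited signal (linear intensity on a log axis) of each of the 15 probe sets in the heterozygous pool (circles) and the homozygous pool (squares), 1 array each, with the array medians as dotted lines. Chrd lies to the right and Nog to the left in the homozygous pool, and the 4 Twsg1 probe sets all lie to the left.

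Of the 10 antagonists 9 were measured, and by brightest probe set chordin was the one that passed 1.5-fold relative to the array medians. Among the 13 measured probe sets 1 was 1.5-fold lower, a dimmer one of Twsg1, against 461 of all 23379 measured probe sets. Chrd was 1.96-fold higher in the homozygous pool, Nbl1 1.32-fold higher, Twsg1 1.29-fold lower and Nog at least 1.32-fold lower, while the other 5 measured genes lay within 1.2-fold. The order of their sizes depends on the processing, since Nog is a bound and against the spikes Nog (-0.80) and Twsg1 (-0.77) were farther from 0 than Chrd (0.56). At 1.5-fold, 1 of the 9 genes was higher, where 2.08% of all 11432 measured genes were, and 0 were lower, where 0.883% of all were. At 2-fold, 0 were higher and 0 lower, against 0.236% and 0.219% of all genes. Nog is counted here at its bound, and with the floor at the 40th percentile that bound was -1.19, past both folds. Below 0 were 5 of the 9, against 42.3% of all measured genes, and above 0 were 4, against 57.7%, and their median was -0.10 against 0.04 over all. Since these genes were chosen on the same contrast, nothing is read from these shares. For Chrd, Nbl1 and Twsg1 the difference was larger than the probe set spread at their signal, for 5 genes it was not, and Nog, known only by a bound, was not set against it.

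**Figure D2:**
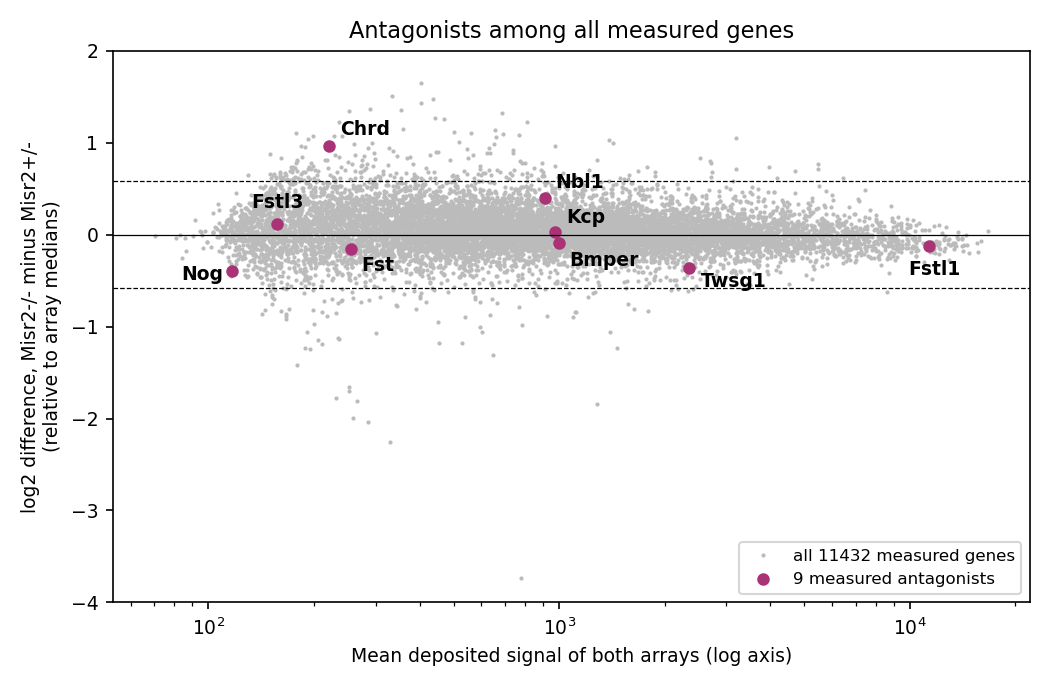
Log2 difference, homozygous minus heterozygous, against the mean signal of both arrays for all 11432 measured genes (grey) and the 9 measured antagonists (purple); dashed lines mark 1.5-fold. Chrd at 0.97 is the one antagonist outside the dashed lines, and Nog at -0.40 is a bound.

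Chordin, a large secreted protein with cysteine-rich repeats that holds BMPs away from their receptors, was represented by 1 probe set. Its signal was 132.5 in the Misr2+/- pool and 310.2 in the Misr2-/- pool. The heterozygous signal was thus just above its floor, at 1.14 times the array median, and the homozygous one stood at 2.23 times its median. The log2 difference of 0.97 compares with a probe set spread of 0.26 at this signal. As deposited, without any scaling, the homozygous signal was 2.34-fold higher, where 0.787% of all measured genes were at least 2-fold higher, and the log2 difference was 1.23; against the hybridisation spikes, the control transcripts added to each sample, it was 0.56. Chrd was higher in the homozygous pool under every alternative in which it was measured. With the floor at the 60th percentile, however, its difference was 0.30, a bound. It then passed the filter through the Misr2-/- pool alone, so that its direction was set by the filter. With the floor at the 75th percentile it was not measured. No second probe set was there to compare it with.

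Kcp and Bmper, which also carry chordin-like cysteine-rich repeats, differed less. Kcp, the kielin/chordin-like protein that in mouse is known to enhance rather than block BMP signalling, had a signal of 877.8 in Misr2+/- and 1074.1 in Misr2-/- ridges. Bmper, crossveinless-2 in flies, which can either block or promote BMP signalling, had signals of 944.4 and 1057.4. Both were brighter in the homozygous pool to about the extent of the whole array. Their log2 differences were 0.03 for Kcp, which turned to -0.37 against the spikes and also fell just under 0 when scaled to the 75th percentile, and -0.10 for Bmper, which turned to 0.16 as deposited. Both are smaller than the spread of 0.23 between probe sets at their signals. The difference of Chrd exceeded that of Kcp by 0.94 and that of Bmper by 1.06, amounts that a common scaling of the arrays leaves as they are.

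Twsg1, twisted gastrulation, which forms a complex with chordin and BMPs and can strengthen or weaken the block, was the antagonist with most probe sets and was lower in the homozygous pool. Its brightest probe set had signals of 2426.6 in the Misr2+/- pool and 2250.3 in the Misr2-/- pool. The second had 1334.6 and 1158.6, and the third 537.6 and 421. The homozygous signal was thus the lower one in each, although this array was the brighter one. Relative to the medians the 3 differences were -0.37, -0.46 and -0.61, with a mean of -0.48 ± 0.12 (SD over the 3 probe sets, which are measures of the same 2 RNA pools and no replicates). The fourth probe set, under the floor in both pools, had signals of 52.8 and 42.6. Scalings kept all 3 below 0, from -0.11, -0.20 and -0.35 as deposited to -0.77, -0.87 and -1.02 against the spikes. With the floor at the 75th percentile the third stood at 0.01, a bound, since its homozygous signal was under that floor and was replaced by it. Between Chrd and the brightest Twsg1 probe set the log2 differences were 1.34 apart.

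Noggin, a small secreted dimer that covers the receptor-binding sites of BMPs, was lower in the homozygous pool and dim in both. Its one probe set had signals of 153.5 in the Misr2+/- pool and 79.3 in the Misr2-/- pool, the latter under the floor. The gene passed the filter through the heterozygous pool alone, so that a lower value in the other pool was built into its selection. With the homozygous signal set to the floor Nog was at least 1.32-fold lower, a log2 difference of -0.40. Its size rests on the floor. The bound was -1.19 when the 40th percentile served as floor, and the difference was -1.09 without a floor and with a pseudocount of 16. The gene was not measured with the floor at the 60th or 75th percentile. In the authors' deposited table this probe set has a signed fold of -2.343, which means lower in the homozygous pool, from 167.3 to 71.4 on that table's own scale. It is the one antagonist probe set in that table, which holds 739 of 45037 probe sets, or 1.64%. On the scale of that table the Chrd signals give 1.93-fold, and the smallest fold it lists is 2.

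The DAN family, small cystine-knot proteins, was represented by Nbl1 and Grem1. Nbl1 (DAN), a weaker binder of BMPs than its relatives, had signals of 705.6 in the Misr2+/- pool and 1111.5 in the Misr2-/- pool. Its log2 difference was 0.40 against a probe set spread of 0.23; it was 0.66 as deposited and -0.01 against the spikes, where it turns negative. Grem1 (gremlin), which blocks BMP2, BMP4 and BMP7, had signals of 30.1 and 52.3. Both lay under the floor, so no difference is given and the gene is not called absent.

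The follistatin group showed little difference between the genotypes. Fst, follistatin, an inhibitor of activins that also binds BMPs, had signals of 245.4 in the Misr2+/- pool and 264.4 in the Misr2-/- pool at its brightest probe set. Its second probe set had 155.5 and 188.6. The log2 differences were -0.15 and 0.02, on both sides of 0 and within the spread of 0.26 at these signals; the first turned to 0.11 as deposited and the second to -0.38 against the spikes. Fstl3, a related inhibitor of activins and myostatin, had signals of 136.3 and 176.4, close to the floor in both pools. Its difference was 0.11, and it turned to -0.29 against the spikes. Fstl1, a secreted glycoprotein known in mouse to bind BMP4 and to be needed for lung and ureter development, was far above the floor in both pools. Its 2 probe sets had signals of 10815.1 and 11875.2, and of 6127.1 and 6906.5. Their differences of -0.12 and -0.09 lay within the spread of 0.20 at this signal and turned to 0.13 and 0.17 as deposited.

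**Figure D3:**
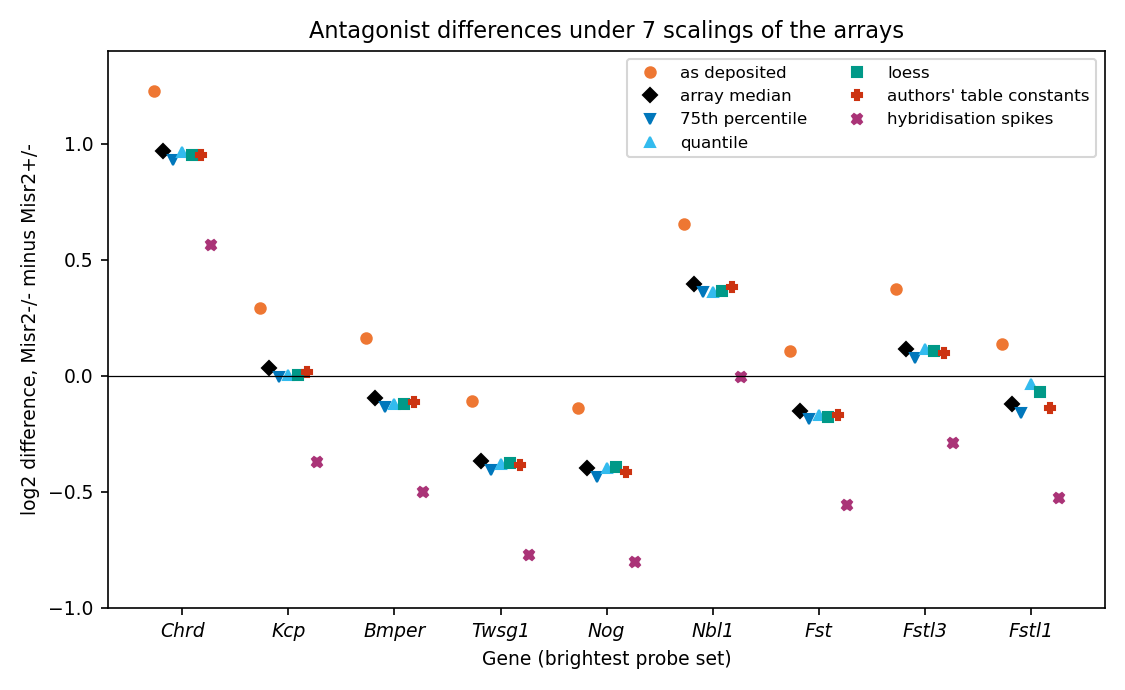
Log2 difference, homozygous minus heterozygous, of the brightest probe set of each of the 9 measured antagonists under 7 scalings of the arrays. Chrd lies above 0 and Twsg1 below 0 under each scaling, the sign of 6 genes depends on it, and Nog is a bound whose side of 0 the filter sets.

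By their brightest probe set, Chrd and Twsg1 kept their direction under all alternatives that measured them, and 6 genes changed sign under at least 1. The direction of Nog was set by the filter and is not counted here. That of Chrd with the floor at the 60th percentile was set in the same way and is not counted either. From as deposited to the spikes each value moved by the same amount on the log2 scale, whereas quantile normalization and loess moved genes unequally.

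Other secreted antagonists of the pathway were mostly dim. Of 15 further genes listed, 13 had a probe set of their own, and 5 of these were measured. Smoc2, a matricellular protein of a family known to inhibit BMP signalling in Xenopus, had signals of 3942.5 in the Misr2+/- pool and 5000.7 in the Misr2-/- pool, a difference of 0.08. Its relative Smoc1 stood at 0.33 and Vwc2 (brorin), with a heterozygous signal under the floor, at 0.34 or higher. Sostdc1, which binds BMPs and WNT coreceptors, stood at 0.09. Smoc2, Smoc1 and Sostdc1 turned negative against the spikes, where the bound for Vwc2 leaves its sign unknown. Crim1, a membrane-tethered protein with chordin-like repeats, stood at -0.48 for its brighter probe set but at 0.82 or higher for the other one, whose signal of 104.2 in the Misr2+/- pool was under the floor (246.7 in the Misr2-/- pool). The median of the 5 was 0.09 against 0.04 over all measured genes, and by their brightest probe sets 0 were seen to pass 1.5-fold. Of all measured genes 2.08% were 1.5-fold higher and 0.883% lower. Vwc2 enters the count of the 5 at its bound, so that its full size is unknown. The other Crim1 probe set was at least 1.77-fold higher. That probe set and Vwc2 passed the filter through the Misr2-/- pool alone, so that a higher value was built into their selection.

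Chordin is cleaved by the tolloid proteases, of which Bmp1 was measured. Its signals were 1345 in the Misr2+/- pool and 1419.5 in the Misr2-/- pool, a difference of -0.18 (0.08 as deposited), and its other probe set stood at 0.31. Tll1 and Tll2 were under the floor in both pools. The difference of Chrd exceeded that of Bmp1 by 1.15 on the log2 scale.

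Among the ligands that these proteins bind, 4 of 5 measured BMP genes were below 0 relative to the medians and 2, Bmp2 and Bmp4, as deposited. Relative to the medians, 42.3% of all measured genes were below 0. Bmp4 had signals of 705 in the Misr2+/- pool and 579.2 in the Misr2-/- pool, a difference of -0.54. Bmp2, with 695.6 and 659.9, stood at -0.33 and Bmp5, with 592.1 and 603, at -0.23 (0.03 as deposited, and -0.83 at its lowest probe set). Bmp6 stood at -0.07 (0.19 as deposited). Bmp7 was the exception, with 259.5 and 424.5 and a difference of 0.45, and its other measured probe set stood at 0.35 or higher, having passed the filter through the Misr2-/- pool alone. The median of the 5 was -0.23 (0.026 as deposited) against 0.04 over all genes. At 1.5-fold 0 of the 5 differed, where 2.08% of all measured genes were higher and 0.883% lower. The differences of Chrd and Bmp4 lay 1.51 apart and those of Chrd and Bmp7 0.52 apart, each independent of a common scaling. The activin subunits and inhibin, which follistatin acts on, were all on the lower side, with Inha at -0.37, Inhba at -0.32 and Inhbb at -0.29, and 0 of the 3 differed 1.5-fold. Each stayed below 0 as deposited, at -0.11, -0.06 and -0.03. The shares of all measured genes given for the BMP genes hold for these counts too.

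The receptors and Smads downstream differed little. By brightest probe set, 7 of 8 measured type I and II receptors other than Amhr2 lay within 1.2-fold (78.4% of all measured genes). Acvr1b at -0.28 was the one outside, and the median was -0.04. Acvrl1 is counted within at 0.09 but is a bound, since its heterozygous signal was under the floor. The brightest, Bmpr1a and Bmpr2, stood at -0.14 and -0.11 and turned positive as deposited, at 0.12 and 0.15. Acvr1, a type I receptor for BMPs, stood at -0.04 but at -0.48 for its other measured probe set. Bmpr1b and Acvr2b stood at 0.21 and 0.20. The 3 measured coreceptors Rgma, Rgmb and Eng stood at 0.10, 0.23 and 0.22, and the 5 measured Smads had a median of 0.13, from -0.06 for Smad2 to 0.26 for Smad1. Smad5, Smad3 and Smad4 stood at 0.23, 0.13 and 0.10, and each of these and Smad1 had probe sets on both sides of 0. All coreceptors and Smads with a positive value turned negative against the spikes, unlike Smad2, which was already below 0.

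Genes known to respond to BMP signalling had a median of -0.82 over 11 measured genes, of which 7 were at least 1.5-fold lower (0.883% of all measured genes) and 0 higher. The median was -0.36 with the floor at the 60th and -0.13 with it at the 75th percentile. The genes were listed with their values in these arrays already known, so that this count is no independent evidence. Msx2, a homeobox gene, went from 556.6 to 100.7, at least 4.78-fold lower, and Dlx5 and Sp7, further regulators of transcription, were at least 3.51-fold and 2.35-fold lower. Msx2, Dlx5 and Sp7 passed the filter through the Misr2+/- pool alone, so that a lower value was built into their selection. They are part of the count and the median given above. The others counted as lower had both signals above the floor. These were Smad6 at -1.23, Id4 at -0.84, Msx1 at -0.82 and Bambi at -0.60. The 3 measured Id4 probe sets went from -0.84 to -0.43. Id1, Id2 and Id3, which respond to BMPs in many cell types, stood at -0.00, 0.22 and -0.05. The other measured Id2 probe sets stood at -0.08 and -0.12. Smad7, an inhibitory Smad, stood at -0.21, but its other measured probe set went from 451.6 to 1032.3, a difference of 0.93. No relation between Chrd and these genes can be tested with 2 arrays.

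**Figure D4:**
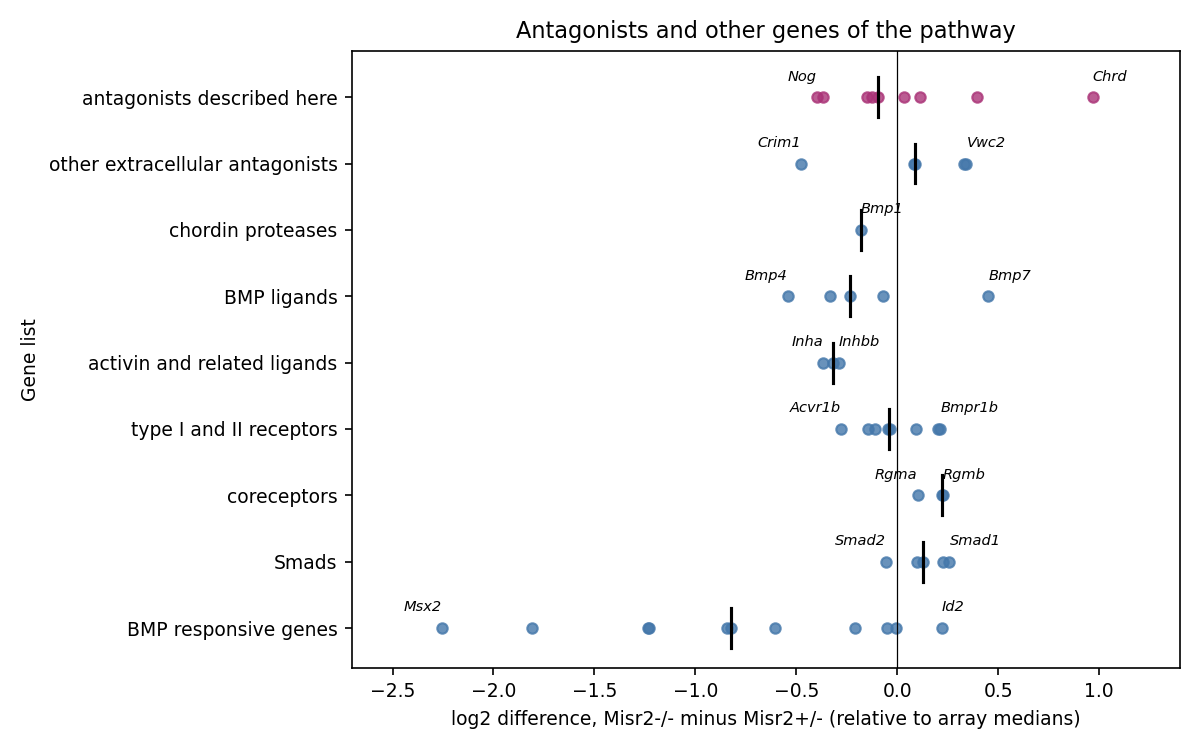
Log2 difference, homozygous minus heterozygous, relative to the array medians, of every measured gene in the antagonist group (purple) and 8 lists of other pathway genes (blue); bars mark medians, and the lowest and highest gene of each list are named. The antagonists spread from -0.40 to 0.97 around a median of -0.10, and the BMP responsive genes have a median of -0.82.

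Markers of several cell types differed between the pools beside these genes. All 11 duct epithelium markers with a probe set were measured, 9 of them above 0, against 57.7% of all measured genes. Their summed deposited signal was 13677.6 in the Misr2+/- pool and 19041.3 in the Misr2-/- pool, the brighter array. Relative to the array medians the log2 difference of these sums was 0.22, and this value is given in brackets for the next lists. Germ cell markers, 6 of 8 measured and 5 of these below 0, summed to 1722.2 and 1220.7 (-0.76), although gonads had been removed. Of all measured genes 42.3% were below 0. Ddx4 and Pou5f1 passed the filter through the Misr2+/- pool alone, which set their side of 0. Fetal testis markers, 7 of the 9 with a probe set measured and 6 of these below 0, summed to 1988.5 and 1924.9 (-0.31). Among them Dhh and Defb19 passed the filter through the Misr2+/- pool alone. Amh, the defining gene of this list, was under the floor at 19 and 5.5. Fetal ovary markers, 4 of 5 below 0, summed to 4262.3 and 4149.3 (-0.30). Of 6 metanephric kidney markers with a probe set 1 was measured, Eya1, which went from 149.6 to 209.4, a difference of 0.23. With the 5 under the floor this list summed to 452.7 and 364 (-0.57). The remaining lists were ridge mesenchyme, coelomic epithelium, adrenal cortex, macrophage, endothelium, smooth muscle and erythroid cells. Their median differences went from -0.30 for adrenal cortex (1 measured gene) to 0.07 for smooth muscle (2 measured genes), but single genes lay farther out. Besides Amhr2, ridge mesenchyme markers went from -1.14 for Osr1 to 0.80 for Hoxa11. Macrophage markers went from -0.87 for Cx3cr1 to 0.07 for C1qa, and endothelium markers from -0.53 for Kdr to 0.49 for Cdh5. The part of such cells in the higher Chrd and Nbl1 and the lower Twsg1 and Nog signals was not tested. Transcripts of the Y-linked gene Eif2s3y were measured in both pools, at 1199.7 in Misr2+/- and 1541.9 in Misr2-/- ridges, and all 3 probe sets of Xist, which marks female cells, were under it.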

How the data were processed

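Per the labels' protocols, total RNA was extracted with Trizol and biotin-labelled for Affymetrix arrays. GCOS and MAS5 are named, without role or version, per the submitters' processing notes. The deposited value table holds a linear intensity for every probe set on each array; how the authors scaled it is not stated per the labels. The authors' deposited table of signed folds, treated as a score, equals these intensities times 0.901 (homozygous) and 1.09 (heterozygous).

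Of 45037 probe sets that were not controls, 34945 had 1 gene symbol, 932 several and 9160 none, per the platform annotation. A gene was represented by its brightest measured probe set. Chromosomes came from RefSeq (GRCm38.p6) through the Entrez identifier. Values were computed with pandas 2.3.3 and statsmodels 0.14.6, and the procedure was tested on simulated data. With 1 array per genotype no test was made, and the number of arrays limits the precision. For the probe set spread, the gap between the log2 differences of the 2 brightest measured probe sets was taken for each gene, and its SD, scaled to a single probe set, was computed in 4 ranges of signal.

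The genes and lists were chosen with earlier results of these data known. Named were all 10 antagonists, Amhr2, and per list up to 3 genes with the largest difference and up to 3 of the brightest. The 12 alternatives were 6 scalings, a floor at percentile 40, 60 or 75, a pseudocount of 16, the median of probe sets, and leaving out probe sets marked _s_at, _x_at or _a_at. Detection calls were not used. Sex-linked genes, Bmp6, Smad6, Smad7, Id4, Msx1, Bambi, Acvrl1 and single cell type markers were named after their values were seen.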

Additional observations from a re-analysis of the deposited data

How the results depend on the processing

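Of 102 values of single antagonists under the 12 alternatives, 81 moved by less than the probe set spread and 7 changed sign. This split follows in large part from the settings and is no measure of stability. As deposited and against the spikes every gene moves alike by more than the spread. The alternatives that choose among probe sets cannot move a gene with 1 probe set. As deposited, 2 antagonists passed 1.5-fold and 1 passed 2-fold on the higher side, 7 instead of 4 lay above 0, and their median was 0.16. Of all measured genes 0.787% were then at least 2-fold higher. This setting raises every gene by 0.26, and the other shares over all genes were not computed for it. The list medians were then 0.35 for other antagonists, 0.078 for the chordin protease, 0.026 for BMP ligands, -0.061 for activins, 0.22 for receptors, 0.48 for coreceptors, 0.39 for Smads and -0.56 for BMP responsive genes. Against the spikes 0 were 1.5-fold higher and 2 lower, 1 lay above 0, and the median was -0.50. This scaling moves every gene by -0.40 relative to the medians. Shares over all genes were not computed for it, so nothing about the antagonists is read from these counts. The list medians, in the same order, were then -0.32, -0.59, -0.64, -0.72, -0.44, -0.18, -0.28 and -1.23. With the floor at the 40th percentile, or with a pseudocount, 1 antagonist (Nog) passed 1.5-fold and 2-fold on the lower side. With the floor at the 60th percentile 0 were 1.5-fold higher and BMP responsive genes had a median of -0.36. With the floor at the 75th percentile 5 antagonists were measured, 2 lay above 0, 0 were 1.5-fold higher, that list's median was -0.13, and the third Twsg1 probe set stood at 0.0065. With the median of probe sets the chordin protease stood at 0.064 and Smads at -0.11. The scaling and floor act through their own construction. No paired analysis was possible because each genotype had 1 array. Signals near the floor limit Chrd, Nog and Fstl3.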
